A study of Mus musculus with 40 samples.

Results

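The comparison set 8 amygdala libraries of mice colonised at weaning against 12 of germ-free mice, all taken 1 hr after social interaction. They were chosen by condition as named on the libraries, exGF-SI against GF-SI, and make up 20 of the 40 libraries of the series. All mice were males of the outbred Swiss Webster stock, aged 10 weeks, born to germ-free breeding pairs, and each library held the RNA of 1 animal. GF mice lived in isolators to the end, whereas exGF mice left the isolators at weaning for the standard animal unit, where used bedding of conventional mice (CON) exposed them to microbes. Both groups ate the same autoclaved diet. The amygdala of 1 hemisphere was dissected by hand after a test in a 3-chamber arena that held a conventional male mouse and an object. The effects of microbes, of leaving the isolator and of the standard unit cannot be told apart in this design. Litters and cages of single animals were not given in the sources used here, and p-values measure the spread between these animals.

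The amygdala is a group of nuclei of the temporal lobe that weighs the emotional value of stimuli, social ones included. Its tissue holds excitatory and inhibitory neurons among astrocytes, oligodendrocytes, microglia and vessels. Astrocytes take up glutamate, couple through gap junctions and line vessels with their endfeet. Neurons answer a stimulus within an hour through immediate early genes, which code for transcription factors and synaptic regulators. The comparison asks whether a microbial environment met only after weaning is accompanied by another transcriptome in mice that had passed the same social stimulus.

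Library totals were 7291810 to 19961958 read pairs in GF-SI and 10909751 to 15915149 in exGF-SI. No 2 libraries of a group came near counting noise, with a chi-square per degree of freedom of at least 8.01 between pairs. Markers of the amygdala nuclei summed to 1080 to 1880 CPM in GF-SI and 1630 to 2040 in exGF-SI. The median sum was higher in exGF-SI (1780 against 1630 CPM), although 8 of the 11 measured markers were lower there. One library stood apart: in exGF-S7 the ribosomal RNA locus Gm42418 took 9.25% of the counts, against at most 1.75% in the other 19. Ttr, the transthyretin of the choroid plexus, reached 748 to 1350 CPM in 3 exGF-SI libraries (S4, S7 and S9) and 707 to 896 CPM in 2 GF-SI libraries (S8 and S12). It lay between 8.62 and 67.6 CPM in the other 15. Counts are given below also without these 5 libraries. Levels are given as CPM, a share of the library's counts scaled by TMM, and compare 1 gene between libraries, not genes with each other.

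Colonisation at weaning went with few calls. Of 15068 genes tested with edgeR's quasi-likelihood test, 15 passed an adjusted p of 0.1 (0.0995% of those tested), 2 higher (0.0133%) and 13 lower (0.0863%) in exGF-SI than in GF-SI. Without adjustment, 1949 genes (12.9%) had a p under 0.05, 943 of them higher (6.26%) and 1006 lower (6.68%). The median log2 fold change over all genes was 0.0011, with 50.3% of them higher and 49.7% lower. DESeq2, the kind of test used for these groups in the study, called 300 of the same genes (1.99%), 133 higher (0.883%) and 167 lower (1.11%), and 14 of the 15 edgeR calls were among them. limma voom with sample quality weights called 131 (0.869%), 50 higher (0.332%) and 81 lower (0.538%), among them all 15 edgeR calls. Most differences were small, with a median absolute log2 fold change of 0.298 over the DESeq2 calls. Without the 5 libraries rich in Ttr, Mid1 was the 1 gene called, and without exGF-S7 120 genes were.

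Mid1 rose the most of the called genes. It codes for midline 1, a microtubule-associated ubiquitin ligase that targets the catalytic subunit of protein phosphatase 2A, and in the mouse it straddles the boundary of the pseudoautosomal region of the X chromosome (GRCm38, chrX:169685199-170005736, plus strand). The 12 GF-SI libraries held 1.84, 2.47 and 3.70 CPM at the lowest, the median and the highest. Of the 8 exGF-SI libraries, 7 held 10.9 to 20.1 CPM, while exGF-S7 held 2.04 CPM. These 7 lay above every GF-SI library, and exGF-S7 lay within the GF-SI range. The log2 fold change was 2.43 (SE 0.245, edgeR adjusted p = 1.68e-05). The 8 CON-SI libraries held 2.74 to 6.53 CPM, which placed the conventional level beside that of GF-SI rather than that of exGF-SI. Among naïve pools Mid1 was not split by colonisation. GF pools held 10.4, 14.6, 2.25 and 1.86 CPM, and exGF pools 16.4, 14.8, 6.92 and 6.51 CPM (log2 fold change 0.56, unadjusted edgeR p = 0.316). The exGF pools all lay above the 2 lower GF pools, and the 2 higher GF pools lay within the exGF range. Mid1 remained called in each of the 20 runs that left out 1 library. Of the 100-base windows of its transcripts 23.9% also occur in transcripts of other genes, 12.4% in Mid1-ps1, so a part of its reads may be placed uncertainly.

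The other rise was Gm14415, an unprocessed pseudogene of chromosome 2 (chr2:177103564-177106488, minus strand). GF-SI libraries held 0.152, 0.523 and 0.794 CPM at the lowest, median and highest, and exGF-SI libraries 0.849, 1.41 and 1.92 CPM. The groups did not overlap, as for 2 genes of all tested (0.0133%), Stk16 being the other. The log2 fold change of Gm14415 was 1.53 (SE 0.248, edgeR adjusted p = 0.0229), from 251 read pairs in all 20 libraries. The gene lies among genes for zinc finger proteins with a KRAB domain, a family of DNA-binding repressors that has expanded on distal mouse chromosome 2 and of which many members bind retrotransposons.

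The neighbours of Gm14415 were looked at after its value had been seen. Between Gm14419 and Gm14403 (chr2:177000956-177509763) 18 genes are annotated, 16 had reads and 9 were tested. Gm14415 left aside, 7 of the other 8 were higher in exGF-SI, 6 with an unadjusted p under 0.05. Of all genes 6.26% were higher at that p. Both ends of the region, Gm14419 and Gm14403, are genes that rose, and its members share sequence. The counts thus describe the region and do not test it. Promoters of 3 protein-coding members were at hand in RefSeq (GRCm38.p6), which are printed since they show how alike neighbouring copies are. Each spans 250 bases before to 50 after the start, at chr2:177206447-177206746 (minus strand), chr2:177464492-177464791 (plus) and chr2:177497976-177498275 (plus). Capitals mark the longest run that all 3 share, of 54 bases.
Gm14410: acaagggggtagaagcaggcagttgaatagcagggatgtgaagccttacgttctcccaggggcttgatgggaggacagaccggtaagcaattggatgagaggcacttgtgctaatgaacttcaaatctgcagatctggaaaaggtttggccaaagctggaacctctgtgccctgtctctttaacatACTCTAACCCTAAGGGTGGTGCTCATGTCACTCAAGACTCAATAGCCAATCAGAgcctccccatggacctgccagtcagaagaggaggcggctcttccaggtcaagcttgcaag
Zfp970: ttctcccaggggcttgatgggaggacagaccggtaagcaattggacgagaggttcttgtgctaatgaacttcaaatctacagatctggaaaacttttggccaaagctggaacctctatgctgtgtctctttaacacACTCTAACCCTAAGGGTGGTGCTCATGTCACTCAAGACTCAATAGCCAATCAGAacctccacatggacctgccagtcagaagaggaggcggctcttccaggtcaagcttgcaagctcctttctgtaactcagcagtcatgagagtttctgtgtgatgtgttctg
Gm14403: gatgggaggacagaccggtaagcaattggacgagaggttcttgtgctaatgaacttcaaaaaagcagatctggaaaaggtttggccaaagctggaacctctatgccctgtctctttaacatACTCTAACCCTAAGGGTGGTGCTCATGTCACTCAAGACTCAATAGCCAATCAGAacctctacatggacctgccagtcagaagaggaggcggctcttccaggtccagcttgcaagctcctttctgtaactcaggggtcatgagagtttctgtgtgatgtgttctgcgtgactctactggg
The 3 sequences were identical at 95.2% to 95.4% of 235 to 285 aligned bases in pairs. The shared run holds the letters CCAAT, which on either strand occur in 37.4% of 32851 RefSeq promoters of this length.

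Copies this alike also share transcript sequence. Of 100-base windows, 86.4% of those of Gm14419, 75.2% of Gm14410, 57.6% of Gm14421 and 46.2% of Gm14415 occur in another gene, and 4.95% of Gm14403 and 2.77% of Gm14412. The share was 43.5% for Gm14399, 38.1% for Gm14418, 32.3% for Gm14400, 28.1% for Gm14411 and 17.4% for Zfp970. Shared reads may be divided among copies or dropped, so the levels of all but Gm14403 and Gm14412 are uncertain.

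Gm14410 showed the pattern of the region most plainly. GF-SI libraries held 12.2, 16.3 and 42.9 CPM at the lowest, median and highest, and exGF-SI libraries 34.4, 38.4 and 57.6 CPM. Within GF-SI the values formed separate ranges, since S6, S10 and S11 held 35.3, 42.9 and 32.5 CPM and the other 9 held at most 17.8 CPM. All exGF-SI and all CON-SI libraries (30.7 to 56.3 CPM) lay with the 3 high ones. The log2 fold change of 0.98 (SE 0.213) missed the edgeR threshold at an adjusted p of 0.103 and passed with DESeq2 (0.00466).

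Gm14419 divided the GF-SI libraries in the same way. S6, S10 and S11 held 3.26, 5.85 and 3.34 CPM and the other 9 at most 0.653 CPM, whereas exGF-SI held 2.09 to 7.21 CPM (log2 fold change 1.76, SE 0.563, adjusted p = 0.209). The pseudogene Gm14400, too low to be tested, had reads in S6, S10 and S11 of GF-SI and in none of the other 9, and in every exGF-SI library (0.123 to 0.613 CPM). Gm14403 was highest in GF-S10 and GF-S11, at 12.9 and 11.2 CPM, within the exGF-SI range of 7.06 to 15.6 CPM. The difference between groups in these genes thus goes with a split within GF-SI.

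The remaining members varied. Gm14411 had a log2 fold change of 0.85 (SE 0.200, edgeR adjusted p = 0.107, DESeq2 0.0129), Gm14421 of 0.55 (0.172, adjusted p = 0.196) and Zfp970 of 0.35 (0.103, adjusted p = 0.183, DESeq2 0.0824). Gm14412 (0.03, SE 0.130) and Gm14418 (-0.36, SE 0.256), which lie between Gm14410 and Zfp970, had unadjusted p-values of 0.813 and 0.177. Gm14399, a related gene farther up the chromosome (chr2:175129493-175142012), was lower in exGF-SI at -0.75 (SE 0.229, edgeR adjusted p = 0.191, DESeq2 0.0660). In GF-SI it held its 3 lowest levels in S6, S11 and S10, at 8.57, 9.73 and 13.2 CPM, the libraries in which Gm14410 was high.

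Naïve pools of a condition differed widely. For Gm14410 exGF pools held 17.4, 15.3, 31.2 and 36.5 CPM and GF pools 21.1, 33.2, 26.8 and 22.9 CPM. For Gm14419 exGF pools held 0.110, 0.116, 5.23 and 5.83 CPM and GF pools 2.08, 2.47, 1.22 and 2.16 CPM (log2 fold change 0.63, unadjusted edgeR p = 0.378). The exGF pools also differed in ribosomal RNA. Gm42418 took 14.29% and 6.232% of the counts in exGF-P1 and exGF-P2, and 0.0327% and 0.0554% in exGF-P3 and exGF-P4. The part of ribosomal RNA, litter, cage and genotype in the difference was not tested.

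**Figure D1:**
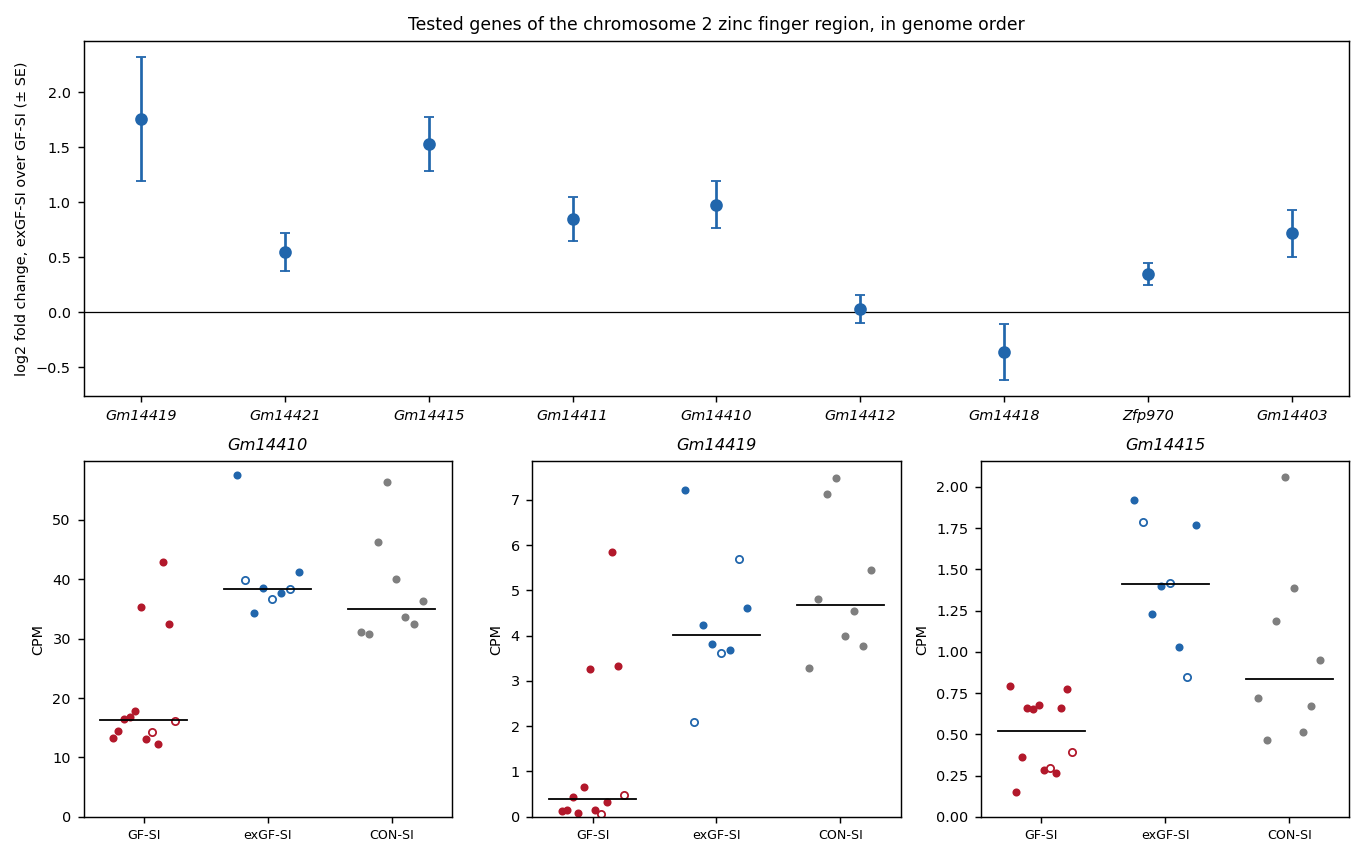
Tested genes of the chromosome 2 region. The upper panel gives the edgeR log2 fold change of exGF-SI over GF-SI with its SE in genome order, from 1.76 for Gm14419 to -0.36 for Gm14418. The lower panels give CPM per library of 12 GF-SI, 8 exGF-SI and 8 CON-SI libraries, with the median as a line and libraries of these GF-SI and exGF-SI groups with Ttr over 500 CPM as open circles. For Gm14410 3 GF-SI libraries lie at 32.5 to 42.9 CPM, at the height of exGF-SI.

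The 13 genes that fell in exGF-SI were Htra1, Vcl, Kank1, Stk16, Ap1b1, Galnt4, Cbs, Slc7a2, F3, Timp4, Ntsr2, Tmcc2 and Ampd3, with log2 fold changes between -0.71 and -0.23. Their medians in exGF-SI all lay below those of GF-SI, and so did each of the 8 exGF-SI libraries below the GF-SI median for all 13. Several of them are known from astrocytes in the brain, among them Ntsr2, Htra1, Timp4 and F3.

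Htra1 codes for a secreted serine protease that cleaves matrix proteins. It held 60.8, 83.4 and 106 CPM at the lowest, median and highest in GF-SI, and 43.8, 53.6 and 71.7 CPM in exGF-SI. The log2 fold change was -0.55 (SE 0.0982, adjusted p = 0.0564), and 6 of 8 exGF-SI libraries lay below every GF-SI library. Timp4, a tissue inhibitor of metalloproteinases, fell the most, from 7.32, 13.9 and 17.0 CPM in GF-SI to 4.62, 8.30 and 10.4 CPM in exGF-SI (log2 fold change -0.71, SE 0.145, adjusted p = 0.0744). F3, tissue factor, which starts coagulation, held 33.2 to 48.0 CPM in GF-SI and 23.5 to 38.0 CPM in exGF-SI (-0.39, SE 0.0777, adjusted p = 0.0739). The RNA of these secreted or surface proteins was thus lower, with log2 fold changes of -0.71 to -0.39 and groups that overlapped.

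Ntsr2, a neurotensin receptor of astrocytes, held 24.9, 29.0 and 34.4 CPM in GF-SI and 17.6, 21.6 and 27.8 CPM in exGF-SI (-0.39, SE 0.0806, adjusted p = 0.0822). Slc7a2, a transporter of cationic amino acids such as arginine, held 16.6 to 25.2 CPM in GF-SI and 12.4 to 17.7 CPM in exGF-SI (-0.43, SE 0.0856, adjusted p = 0.0717). Cbs, the cystathionine beta-synthase that leads homocysteine into transsulphuration, held 9.97 to 14.3 CPM and 7.76 to 10.9 CPM (-0.41, SE 0.0820, adjusted p = 0.0717). Ampd3, an AMP deaminase, held 9.73 to 14.2 CPM and 7.22 to 10.4 CPM (-0.39, SE 0.0834, adjusted p = 0.0958). For Ampd3 and Slc7a2, 7 of the 8 exGF-SI libraries lay below the lowest of GF-SI, for Ntsr2 6 and for Cbs 4.

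A further group concerns the cytoskeleton and membrane traffic. Vcl, vinculin, ties actin to adhesion sites, and held 31.5 to 40.7 CPM in GF-SI and 24.9 to 32.7 CPM in exGF-SI (-0.33, SE 0.0639, adjusted p = 0.0717). Kank1, which links adhesion sites to microtubules, held 18.2 to 26.3 CPM and 13 to 19.4 CPM (-0.42, SE 0.0830, adjusted p = 0.0717). Ap1b1, the beta subunit of the adaptor complex AP-1 of the trans-Golgi network, held 85.8 to 102 CPM and 70.3 to 88.6 CPM (-0.23, SE 0.0461, adjusted p = 0.0717). Of each of these 3 genes 6 exGF-SI libraries lay below all of GF-SI.

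Stk16, a membrane-bound serine/threonine kinase of the Golgi, was the 1 called gene beside Gm14415 with no overlap. For Stk16 GF-SI held 15.8, 18.2 and 19.9 CPM and exGF-SI 10.7, 14.5 and 15.2 CPM (-0.35, SE 0.0691, adjusted p = 0.0717). Galnt4, which starts O-linked glycosylation, held 3.27 to 5.03 CPM and 2.18 to 3.38 CPM (-0.52, SE 0.103, adjusted p = 0.0717), and Tmcc2, a protein of the endoplasmic reticulum, 99.7 to 128 CPM and 81.2 to 110 CPM (-0.28, SE 0.0592, adjusted p = 0.0854). Stk16 overlaps Tuba4a on the opposite strand (24.6% of its windows), Vcl overlaps Ap3m1 (24.7%) and Galnt4 shares 6.45% with Poc1b. Reads were counted without regard to strand. A part of these values may belong to the partner, and reads within an overlap may have been left uncounted.

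**Figure D2:**
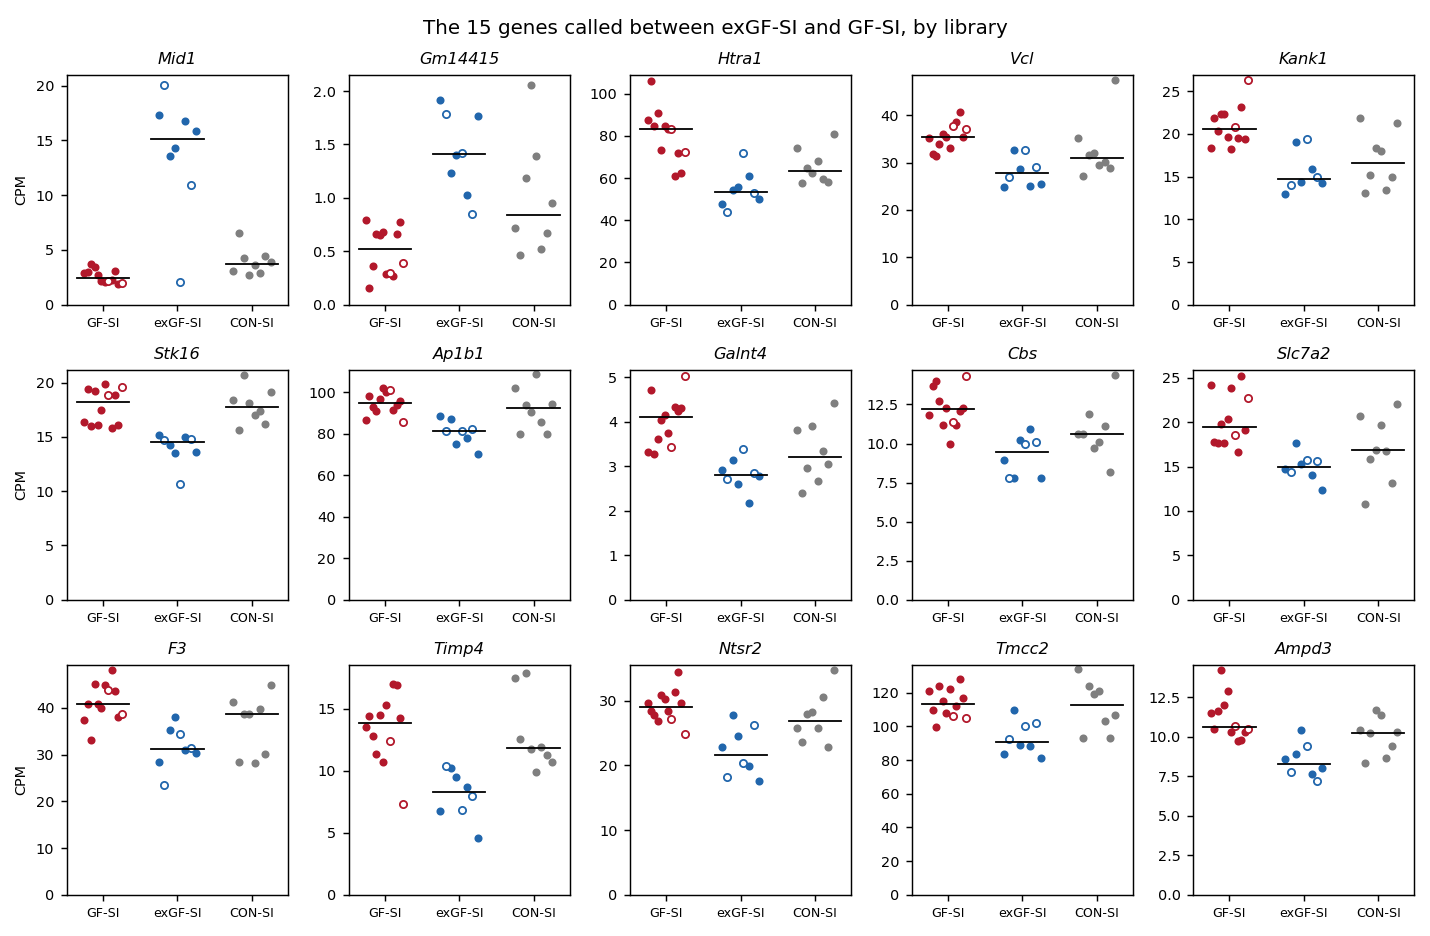
CPM of the 15 called genes in each library of GF-SI (12), exGF-SI (8) and CON-SI (8), with the median as a line and libraries of GF-SI and exGF-SI with Ttr over 500 CPM as open circles. For Mid1 and Gm14415 exGF-SI lies above GF-SI apart from 1 library of Mid1, and for the 13 others below, by 0.23 to 0.71 on the log2 scale.

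The calls of the falls depended on the libraries kept. Without the 5 libraries rich in Ttr all 13 were still lower, by log2 fold changes of -0.82 to -0.25, but 0 of the 13 passed, at adjusted p-values of 0.153 to 0.240 over 5 and 10 libraries. Without exGF-S7 all 13 passed. When single libraries were left out, calls ranged from 2 to 185, the highest without exGF-S5, and each of the falls passed in 7 to 13 of the 20 runs.

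Seen beside conventional mice, the falls went either way. The CON-SI median was nearer to that of exGF-SI for 6 genes (Htra1, Vcl, Kank1, Galnt4, Cbs and Slc7a2) and nearer to GF-SI for 7 (Stk16, Ap1b1, F3, Timp4, Ntsr2, Tmcc2 and Ampd3). Htra1 held 57.6 to 80.8 CPM in CON-SI with a median of 63.5 CPM, and Stk16 15.6 to 20.7 CPM with a median of 17.8 CPM, all above exGF-SI. Both rises had a CON-SI median nearer to GF-SI, 3.73 CPM for Mid1 and 0.836 CPM for Gm14415. These positions were not tested.

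Astrocyte markers were lower as a group. Of 20 markers measured, 19 were lower in exGF-SI and 15 had an unadjusted p under 0.05, against 6.68% of all genes that were lower at that p. The median log2 fold change was -0.19, against 0.0011 over all genes. With edgeR 1 passed, Ntsr2, and with DESeq2 6 did, all of them lower. Of all genes 0.0863% passed as lower with edgeR and 1.11% with DESeq2. The summed level was 6290 to 8510 CPM in GF-SI and 5270 to 7430 CPM in exGF-SI, so the groups overlapped. In bulk tissue, fewer cells of a type and less RNA per cell cannot be told apart.

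Gja1, connexin 43 of astrocyte gap junctions, held 110, 204 and 242 CPM at the lowest, median and highest in GF-SI and 78.2, 109 and 185 CPM in exGF-SI (log2 fold change -0.65, SE 0.163, edgeR adjusted p = 0.131, DESeq2 0.0163). Gfap, the intermediate filament, held 147, 176 and 227 CPM and 85.1, 121 and 185 CPM (-0.47, SE 0.120, edgeR 0.142, DESeq2 0.0222). Fgfr3, a growth factor receptor, held 47.1 to 67.9 CPM and 39.8 to 54.5 CPM (-0.32, SE 0.0758, edgeR 0.120, DESeq2 0.0162). All 8 exGF-SI libraries lay below the GF-SI median for Gja1 and Fgfr3, and 7 of 8 for Gfap.

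Transporters of astrocytes followed. Slc6a11, which clears GABA, had -0.32 (SE 0.0927, edgeR 0.179, DESeq2 0.0669) and Slc1a3, which clears glutamate, -0.17 (SE 0.0570, edgeR 0.219, DESeq2 0.0949). Clu, clusterin, made largely by astrocytes and listed here under complement, had a median of 586 CPM in GF-SI, which compares with 521 CPM among exGF-SI libraries (-0.25, SE 0.0647, edgeR 0.144, DESeq2 0.0324). Gjb6, the other astrocyte connexin, had -0.25 with a DESeq2 adjusted p of 0.164. The list kept its direction without the libraries rich in Ttr, with 19 of 20 lower, 11 of them at an unadjusted p under 0.05, a median of -0.19 and 0 called. The share of all genes at that p without those libraries is not given here. In naïve pools 16 of the 20 were lower, with a median of -0.11 and none passing the adjusted threshold. Of the 20, 3 had an unadjusted p under 0.05 there, where 9.42% of all genes did.

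**Figure D3:**
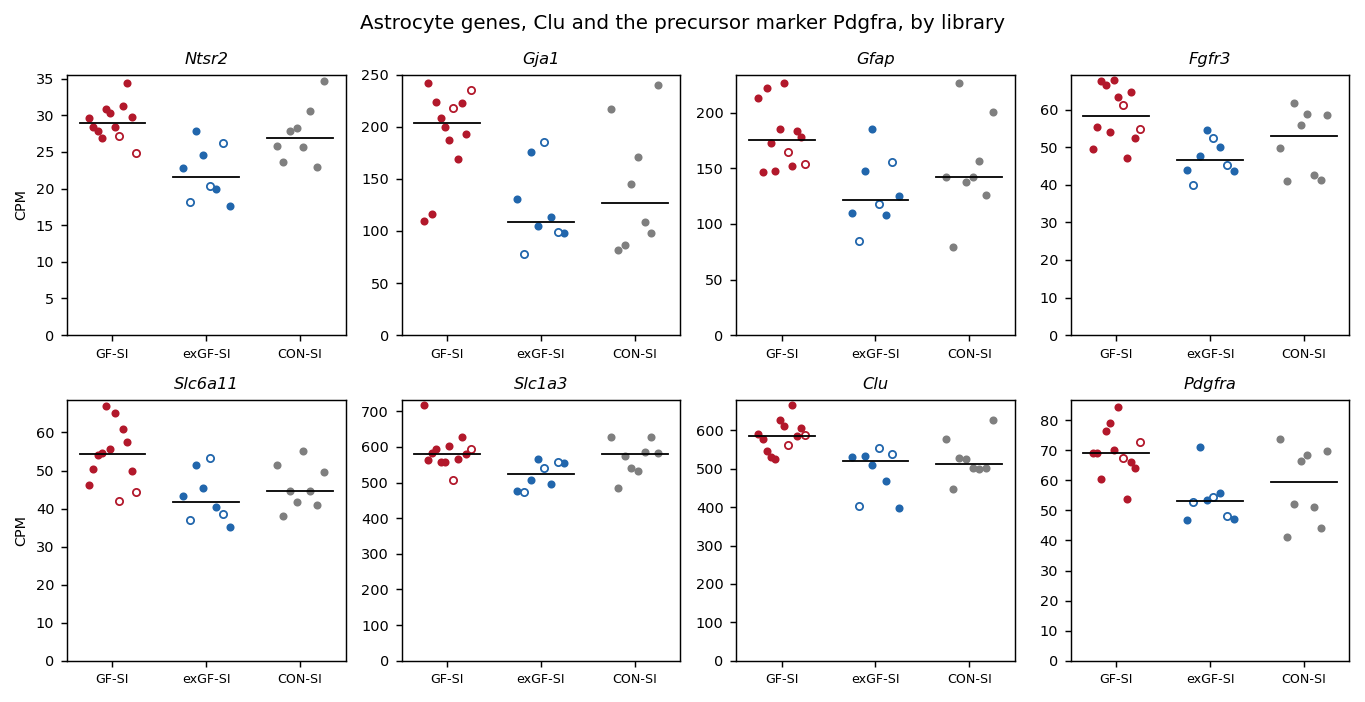
CPM per library of 6 astrocyte markers, of Clu and of the precursor marker Pdgfra in the 3 social interaction groups, with medians as lines and libraries of GF-SI and exGF-SI with Ttr over 500 CPM as open circles. The medians of exGF-SI lie below those of GF-SI in all 8 panels, 109 against 204 CPM for Gja1, and the groups overlap in each.

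Other glia and the vessels leaned the same way with fewer calls. Of 20 myelin and oligodendrocyte markers 19 were lower, with a median of -0.14, but only 1 had an unadjusted p under 0.05, the transcription factor Olig1 (-0.47, SE 0.128, edgeR adjusted p = 0.161, DESeq2 0.0470). Without the libraries rich in Ttr, 11 of the 20 were lower. Of 7 markers of oligodendrocyte precursors 6 were lower, with a median of -0.26. Of these, 4 were lower at an unadjusted p under 0.05, where 6.68% of all genes were. Pdgfra, the receptor that defines these cells, held 53.9, 69.1 and 84.5 CPM in GF-SI and 46.7, 53.1 and 71.2 CPM in exGF-SI (-0.37, SE 0.0816, edgeR 0.106, DESeq2 0.00796), with 7 of 8 exGF-SI libraries under the GF-SI median.

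Microglial markers were lower in 12 of 18 cases, with a median of -0.11. Itgam (-0.28, SE 0.0725, edgeR 0.144, DESeq2 0.0326) and Csf1r, the receptor microglia need to survive (-0.25, SE 0.0683, edgeR 0.161, DESeq2 0.0531), passed with DESeq2. Of all genes 1.11% passed as lower with DESeq2. Of 20 markers of endothelium and pericytes 17 were lower, with a median of -0.16. Of these, 8 were lower at an unadjusted p under 0.05, where 6.68% of all genes were. Ly6c1, an antigen of brain endothelium, held 20.1 to 47.1 CPM in GF-SI and 15.4 to 24.0 CPM in exGF-SI (-0.58, SE 0.148, edgeR 0.144, DESeq2 0.0209), and Flt1, a VEGF receptor, had -0.24 (SE 0.0729, edgeR 0.194, DESeq2 0.0915). These 2 of the 20 vessel markers passed with DESeq2, against the same 1.11% of all genes. Of 13 meningeal and fibroblast markers 12 were lower, 2 at an unadjusted p under 0.05, with a median of -0.17 and none passing. In naïve pools the lean was the other way for these lists, with 13 of 13 meningeal markers higher in exGF (median 0.24), 15 of 20 of the vessels (0.10) and 13 of 20 of myelin (0.03), while precursors (6 of 7) and microglia (12 of 18) were lower.

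Choroid plexus and ependyma went the other way, with 9 of 9 higher, a median of 0.54 and none at an unadjusted p under 0.05. Without the 5 libraries 8 of the 9 were lower, with a median of -0.26. Sostdc1, a choroid plexus gene, held 0.507 to 12.6 CPM in GF-SI and 0.736 to 22.4 CPM in exGF-SI. All 4 measured blood cell genes were higher, with a median of 0.22 and 1 at an unadjusted p under 0.05. The part of these cell types in the other differences was not tested.

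Neuronal markers held no call. Excitatory markers were lower in 6 of 10 cases with a median of -0.04, and Camk2a, the kinase of excitatory synapses, had -0.34 (SE 0.111, edgeR 0.219, DESeq2 0.110). Inhibitory markers were lower in 9 of 12, 4 at an unadjusted p under 0.05 where 6.68% of all genes were, with a median of -0.17 close to that of the vessels, among them Gad2, which makes GABA (-0.31, SE 0.104, edgeR 0.223). Among regional markers the medians were -0.27 for the striatum (9 of 12 lower, 2 of these and 1 of the others at an unadjusted p under 0.05), -0.09 for amygdala nuclei (8 of 11 lower), 0.07 for cortex and piriform (6 of 10 higher), -0.33 for hypothalamus and thalamus (5 of 7 lower) and 0.04 for cholinergic neurons, with 2 measured. None of these genes passed with edgeR or DESeq2.

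**Figure D4:**
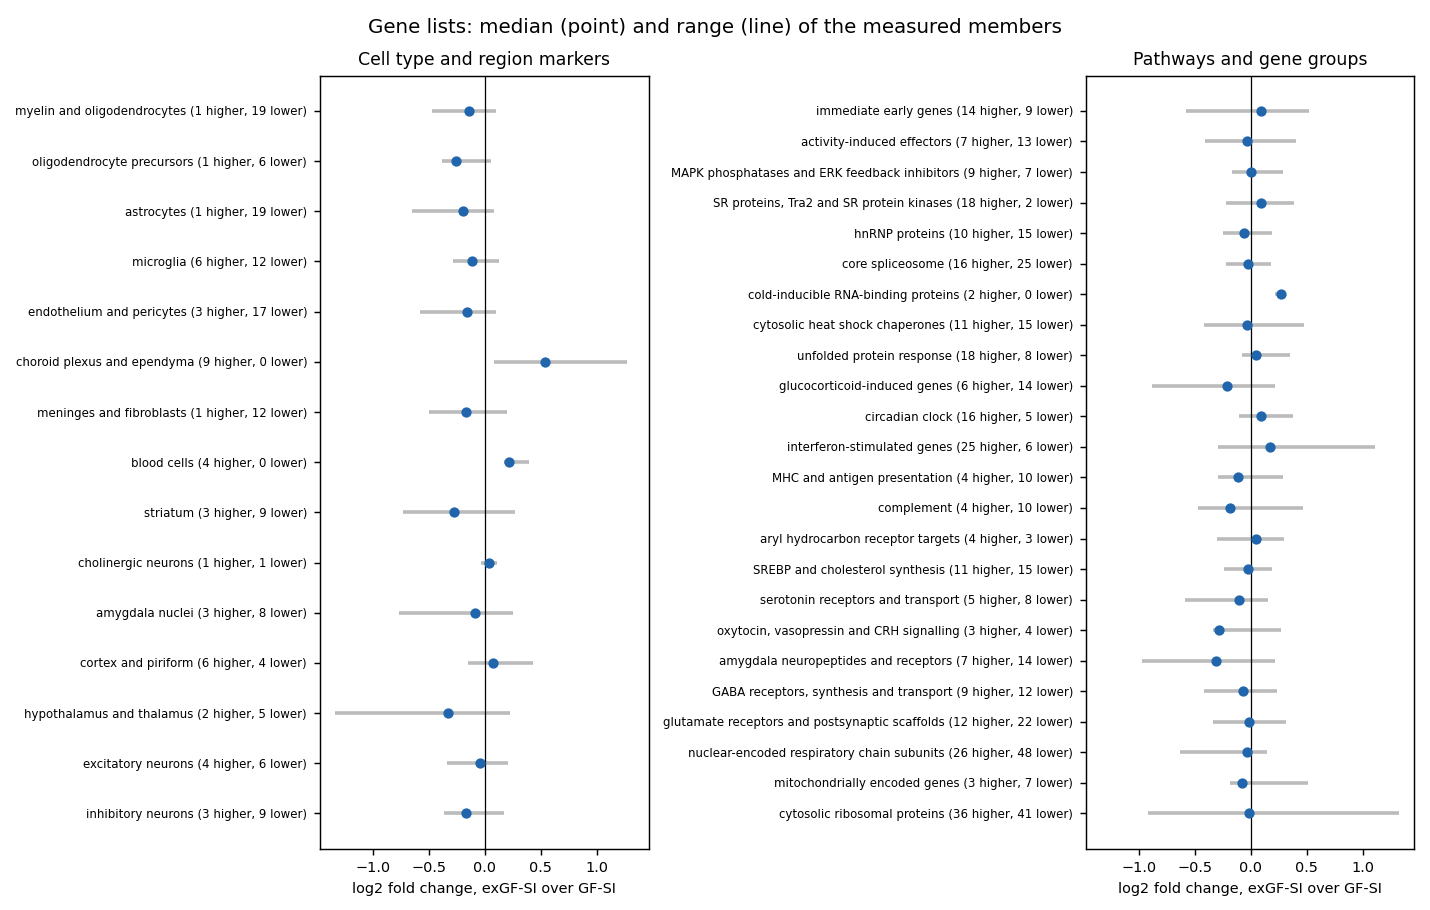
Log2 fold change of exGF-SI over GF-SI in 39 gene lists, with the median of the measured members as a point and their range as a line, and the number of members higher and lower beside each name. Astrocytes (median -0.19), precursors (-0.26) and vessels (-0.16) lie left of 0, choroid plexus (0.54) and interferon-stimulated genes (0.17) right of it.

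Genes that answer a stimulus did not separate the groups. None of 23 immediate early genes, 20 activity-induced effectors and 16 MAPK phosphatases and ERK feedback inhibitors passed with edgeR or DESeq2. Their medians were 0.09, -0.03 and 0. Of them 3, 3 and 2 had an unadjusted p under 0.05, where 12.9% of all genes did. Fos held 21.1, 29.0 and 48.2 CPM in GF-SI and 16.8, 35.4 and 53.2 CPM in exGF-SI (0.25, SE 0.191, unadjusted p = 0.214). Arc, a regulator of synaptic strength, held 90.7 to 588 CPM and 106 to 413 CPM (0.09, SE 0.317, unadjusted p = 0.778). Egr3 (0.09, SE 0.214), Ier5 (0.20, SE 0.265) and the neurotrophin Bdnf (-0.07, SE 0.125) had unadjusted p-values of 0.685, 0.457 and 0.591. The spread between animals was wide, most of all for Arc. Egr1 (0.35, SE 0.165) and Homer1 (0.41, SE 0.170) had unadjusted p-values of 0.0453 and 0.0250.

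RNA processing lists held no calls either. Of 20 SR proteins, Tra2 proteins and their kinases 18 were higher, with a median of 0.09 and 1 at an unadjusted p under 0.05. At that p 6.26% of all genes were higher and 6.68% lower. Without the libraries rich in Ttr 18 of these 20 were again higher, 7 at that p, with a median of 0.17. The share of all genes in that smaller fit is not given here, so the 7 stand without a comparison. The hnRNP proteins had a median of -0.06 (15 of 25 lower, 12 without those libraries, 1 member each way at that p) and the core spliceosome -0.02 (25 of 41 lower, 4 of these and 3 of the higher members at that p). Both cold-inducible RNA-binding proteins were higher, Cirbp by 0.22 (SE 0.110, unadjusted p = 0.0527) and Rbm3 by 0.31 (SE 0.146, unadjusted p = 0.0451), and both were lower in naïve exGF pools than in GF pools, by log2 fold changes of -0.36 and -0.43. The difference between those contrasts had an unadjusted p of 0.00821 for Cirbp and 0.0138 for Rbm3, and adjusted p-values of 0.267 and 0.298. D030028A08Rik, a long non-coding RNA, ranged from 0.529 to 9.40 CPM in GF-SI and 0.801 to 6.5 CPM in exGF-SI (-0.38, SE 0.456, unadjusted p = 0.418).

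Stress lists held no edgeR call. Of 26 genes of the unfolded protein response 18 were higher and 6 had an unadjusted p under 0.05, all higher, where 6.26% of all genes were, with a median of 0.05. Creld2, secreted under stress of the endoplasmic reticulum, held 9.95, 13.4 and 17.5 CPM in GF-SI and 13.8, 17.2 and 19.4 CPM in exGF-SI (0.32, SE 0.0929, edgeR 0.183, DESeq2 0.0687), each exGF-SI library above the GF-SI median. Pdia4 (0.24) and Sdf2l1 (0.35), a disulphide isomerase and a chaperone partner, had edgeR adjusted p-values of 0.223 and 0.260. Of 26 cytosolic chaperones 15 were lower (11 without the libraries rich in Ttr), with a median of -0.03 and 1 member each way at an unadjusted p under 0.05. Hspa2 passed with DESeq2 (-0.42, SE 0.130, edgeR 0.196, DESeq2 0.0862), and Dnajb6 had 0.06 (SE 0.0960).

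Of 20 genes induced by glucocorticoids 14 were lower, 7 of them at an unadjusted p under 0.05 where 6.68% of all genes were, with a median of -0.21 and none passing. Fkbp5, which restrains the glucocorticoid receptor, held 18.4, 31.3 and 48.0 CPM in GF-SI and 19.9, 22.7 and 30.3 CPM in exGF-SI (-0.44, SE 0.157, edgeR 0.242), all 8 exGF-SI libraries under the GF-SI median. Tsc22d4 had -0.29 (SE 0.0950, edgeR 0.219). Gjb6, described above as an astrocyte connexin, was a further member of small p (-0.25, SE 0.0924, edgeR 0.253). Whether this lean is separate from that of the astrocyte markers was not tested. Without the libraries rich in Ttr 12 of the 20 were lower and 1 had an unadjusted p under 0.05. Of 21 clock genes 16 were higher, with a median of 0.09 and none passing. At that p 5 were higher, where 6.26% of all genes were.

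Interferon-stimulated genes, which respond to type I and type II interferons, were higher in 25 of 31 cases, with a median of 0.17. None passed, and 7 were higher at an unadjusted p under 0.05, where 6.26% of all genes were. None was lower at that p. Gbp7, a guanylate-binding protein, held 7.18, 8.83 and 11.3 CPM in GF-SI and 8.89, 11.1 and 14.2 CPM in exGF-SI (0.32, SE 0.107, edgeR 0.225). Rsad2, viperin, had 0.49 (SE 0.175, edgeR 0.244), and Iigp1, an immunity-related GTPase, 0.72 (SE 0.260, edgeR 0.250), with 1 high library. The summed level was 106 to 167 CPM in GF-SI and 125 to 178 CPM in exGF-SI. In naïve pools 26 of 29 were higher in exGF, with a median of 0.15 and none passing with edgeR. Of the 29, 6 had an unadjusted p under 0.05 in either direction, where 9.42% of all genes did. Without the libraries rich in Ttr 23 of 31 were higher after social interaction.

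Of 14 genes of antigen presentation 10 were lower, with a median of -0.11 and none at an unadjusted p under 0.05. Of 14 complement genes 10 were lower, with a median of -0.18, Clu passing with DESeq2. The C1q chains C1qa (-0.15, SE 0.122), C1qb (-0.29, SE 0.124) and C1qc (-0.08, SE 0.136), made by microglia, had unadjusted p-values of 0.248, 0.0268 and 0.561. Among 7 targets and partners of the aryl hydrocarbon receptor, a sensor of microbial and dietary indoles, the median was 0.05, and Nfe2l2, the master regulator of the oxidative stress response, passed with DESeq2 (-0.30, SE 0.0790, edgeR 0.144, DESeq2 0.0448).

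Metabolism gave single members. Of 26 genes of cholesterol synthesis and its regulators 15 were lower, with a median of -0.02 and 3 at an unadjusted p under 0.05. Nuclear-encoded subunits of the respiratory chain were lower in 48 of 74 cases with a median of -0.03, and Cox6a1 (-0.63, SE 0.152, edgeR 0.126, DESeq2 0.0137) and Uqcrc1 (-0.37, SE 0.115, edgeR 0.201, DESeq2 0.0969) passed with DESeq2. Of all genes 1.11% passed as lower with DESeq2. For Cox6a1 GF-SI held 37.9, 75.6 and 101 CPM and exGF-SI 40.4, 48.5 and 55.0 CPM, all 8 under the GF-SI median. Mitochondrially encoded genes had a median of -0.08 (7 of 10 lower). Ribosomal proteins had a median of -0.01 (41 of 77 lower), with Rpl3 lower (-0.31, SE 0.0923) and Rpl15 higher (0.16, SE 0.0491) at DESeq2 adjusted p-values of 0.0779 and 0.0923.

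Of receptors, glutamate receptors and scaffolds had a median of -0.01 (22 of 34 lower), and the subunit Grin2c passed with DESeq2 (-0.34, SE 0.0889, edgeR 0.144, DESeq2 0.0326). It held 13.5 to 20 CPM in GF-SI and 10.1 to 14.1 CPM in exGF-SI. GABA receptors, synthesis and transport had a median of -0.07, with Slc6a11 as the 1 DESeq2 call. Of 21 members 7 were lower and 1 higher at an unadjusted p under 0.05, where 6.68% and 6.26% of all genes were. Amygdala neuropeptides and their receptors were lower in 14 of 21 cases, 4 at that p, with a median of -0.31 and Ntsr2 as the 1 call. Serotonin genes had a median of -0.10 (8 of 13 lower), and oxytocin, vasopressin and CRH signalling -0.28, with 4 of 7 lower, of which Crhbp, the binding protein of corticotropin-releasing hormone, had -0.34 (SE 0.113, edgeR 0.219).

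Among genes of at least 1 CPM that passed with DESeq2, the 12 highest rises by the edgeR fold change were, beside Mid1 and 3 genes of the chromosome 2 region, mostly loci without a known protein. AA465934, named after its value was seen, would rank among them by the DESeq2 fold change (1.34, against 0.69 with edgeR, edgeR adjusted p = 0.594, DESeq2 0.0525). Beside Mid1, Rps26-ps1, a pseudogene of a ribosomal protein, led with 1.90 on the log2 scale (SE 0.552, edgeR adjusted p = 0.183, DESeq2 0.1). Its level rested on exGF-S4 and exGF-S5 with 5.91 and 6.63 CPM, while the other 6 held at most 1.01 CPM and GF-SI 0.157 to 1.72 CPM. CON-SI ranged from 0.380 to 8.51 CPM, naïve exGF pools from 0.849 to 4.18 CPM and naïve GF pools from 0.657 to 1.17 CPM. Of its windows 58% are shared, most with Rps26. Gm38073 (1.03, SE 0.275), Gm37717 (0.94, SE 0.279) and Gm28299 (0.89, SE 0.271) lie close together on the minus strand of chromosome 1, within chr1:124375578-124827728, and Gm37868 (0.76, SE 0.240) lies inside R3hdm1 on the same chromosome. Gm28299 and Gm37717 lie inside Gm28928 on the same strand, which had 0.37 (unadjusted p = 0.0459), and R3hdm1 had 0.22 (unadjusted p = 0.0643). For these 4 the naïve contrast had the opposite sign, at -0.48, -0.46, -1 and -0.76.

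The difference between contrasts was 1.87 for Gm28299 (SE 0.478, unadjusted p = 0.000503, adjusted p = 0.227) and was not called for any of the 4. The other coding rises of this rank were Plb1, phospholipase B1, with 0.657, 1.08 and 1.74 CPM in GF-SI and 0.859, 2.04 and 2.91 CPM in exGF-SI (0.84, SE 0.195, edgeR 0.106, DESeq2 0.0203), BC030499 (0.78, SE 0.237) and Ppm1m, a protein phosphatase (0.70, SE 0.180, DESeq2 0.0316). For Plb1 6 of the 8 exGF-SI libraries lay above all of GF-SI.

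The 12 lowest values of that kind were, beside Timp4, Gja1, Cox6a1 and Gm14399, named for varied functions. Gpnmb, a glycoprotein of phagocytes, had -0.99 (SE 0.269, edgeR 0.158, DESeq2 0.0334) and Cd163, the haemoglobin scavenger receptor that marks perivascular macrophages, -0.82 (SE 0.247, edgeR 0.187, DESeq2 0.0605). Cd163 held 2.25, 3.65 and 6.66 CPM in GF-SI and 1.05, 1.97 and 4.23 CPM in exGF-SI, with 5 of 8 exGF-SI libraries below all of GF-SI. Col22a1, a collagen (-0.77, SE 0.255), and Cybrd1, a ferric reductase (-0.75, SE 0.237), had DESeq2 adjusted p-values of 0.0974 and 0.0978. Ddit4, an inhibitor of mTORC1 that stress and glucocorticoids induce (-0.69, SE 0.221), and Rasd1, a small G protein induced by dexamethasone (-0.62, SE 0.183), had 0.0923 and 0.0589. Adcy4, an adenylyl cyclase of vessels, had -0.60 (SE 0.149, DESeq2 0.0443), and Pcdhga11 -0.71 (SE 0.212, DESeq2 0.0649), a member of a cluster whose genes share their 3′ exons.

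Groups picked after values had been seen gave a further description. Of 360 measured Zfp genes, which code for zinc finger proteins, 231 were higher (64.2%, against 50.3% of all genes), with a median of 0.05. In that direction 59 had an unadjusted p under 0.05, where 6.26% of all genes did, against 14 in the other. With DESeq2 15 passed as higher, where 0.883% of all genes did, and 0 as lower. Zfp760 (0.35, SE 0.0816), Zfp426 (0.24, SE 0.0559) and Zfp943 (0.25, SE 0.0612) were among them. Once GC content and exon length were corrected for in every library, 27 of the Zfp genes were higher at that p and 12 lower. The share of all genes after this correction is not given here. Whether the excess over all genes remained thus cannot be read from these counts. Of 21 protocadherin beta genes, which give neurons surface identities, 20 were higher, and Pcdhb12 (0.44, SE 0.108), Pcdhb13 (0.56, SE 0.140) and Pcdhb19 (0.30, SE 0.0784) passed with DESeq2 at 0.0203, 0.0162 and 0.0380. Pcdhb12 held 4.74, 8.00 and 9.51 CPM in GF-SI and 8.51, 10.7 and 11.5 CPM in exGF-SI, 6 of 8 above all of GF-SI. The gamma protocadherins of types a and b showed no such lean, with 9 of 19 higher.

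Of 15 subunits of the adaptor complexes AP-1 and AP-3, which sort cargo at the Golgi and endosomes, 12 were lower. The median of the 15 was only -0.03. This group, too, was picked after values had been seen, so its counts are a description and not a test. As lower 4 passed with DESeq2, where 1.11% of all genes did, Ap1b1, called above, Ap1s1 (-0.40, SE 0.0927), Ap3b1 (-0.30, SE 0.0681) and Ap1m1 (-0.31, SE 0.0812). Ahnak, a large scaffold protein of vessels and glia, had -0.47 (SE 0.1, edgeR adjusted p = 0.102, DESeq2 0.00466).

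The same contrast was then read in naïve mice, 4 pools of exGF against 4 of GF, of animals without the test. In exGF-P1 and exGF-P2 Gm42418 took 14.29% and 6.232% of the counts, against at most 0.107% in the GF pools. This imbalance runs with the group, and its part in the naïve values was not tested. Of 14669 genes 0 passed with edgeR (0%), and 1382 had an unadjusted p under 0.05 (9.42%), higher in exGF for 4.95% and lower for 4.47%. DESeq2 called 72 of 25902 genes with a read (0.278%), 0.181% higher and 0.0965% lower. The smallest p was that of Leng8 (log2 fold change -0.68, adjusted p = 0.169). Of the 13 falls after social interaction, naïve log2 fold changes lay between -0.25 and 0.14, with unadjusted p-values of at least 0.0606. Htra1 had -0.25, Cbs -0.19 and Stk16 -0.16, and the others lay nearer to 0 or above it. Gm14415 had -0.37 (unadjusted p = 0.5).

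Whether the contrast itself differed after social interaction was tested as 1 difference in a fit of the 4 groups. Of 15884 genes 0 passed with edgeR (0%), and 1918 had an unadjusted p under 0.05 (12.1%), with a positive difference for 5.44% and a negative one for 6.64%. DESeq2 called 110 of 28621 (0.384%), 0.122% positive and 0.262% negative. The smallest p was that of Sh3bp5, an exchange factor that binds JNK, which was higher in exGF than in GF when naïve (0.52, adjusted p = 0.275) and lower after social interaction (-0.28, SE 0.0850, adjusted p = 0.187), a difference of -0.82 (SE 0.154, adjusted p = 0.103). For the 13 falls the difference lay between -0.61 and -0.20, on the side of a larger fall after social interaction, with unadjusted p-values from 0.00177 for Slc7a2 to 0.135 for Cbs and adjusted p-values of at least 0.229. For Gja1 it was -1.08 (unadjusted p = 0.00221, adjusted p = 0.240) and for Mid1 1.84 (unadjusted p = 0.00342, adjusted p = 0.241). The falls, Gja1 and Mid1 were picked by the contrast after social interaction, which is a term of the difference. The choice itself thus pushes the difference towards the sign it had. The naïve libraries were pools of at least 2 animals and the others single animals. The naïve contrast is the other term of the difference, so the exGF pools rich in Gm42418 enter every value of it. The part of Gm42418 in these values was not tested.

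**Figure D5:**
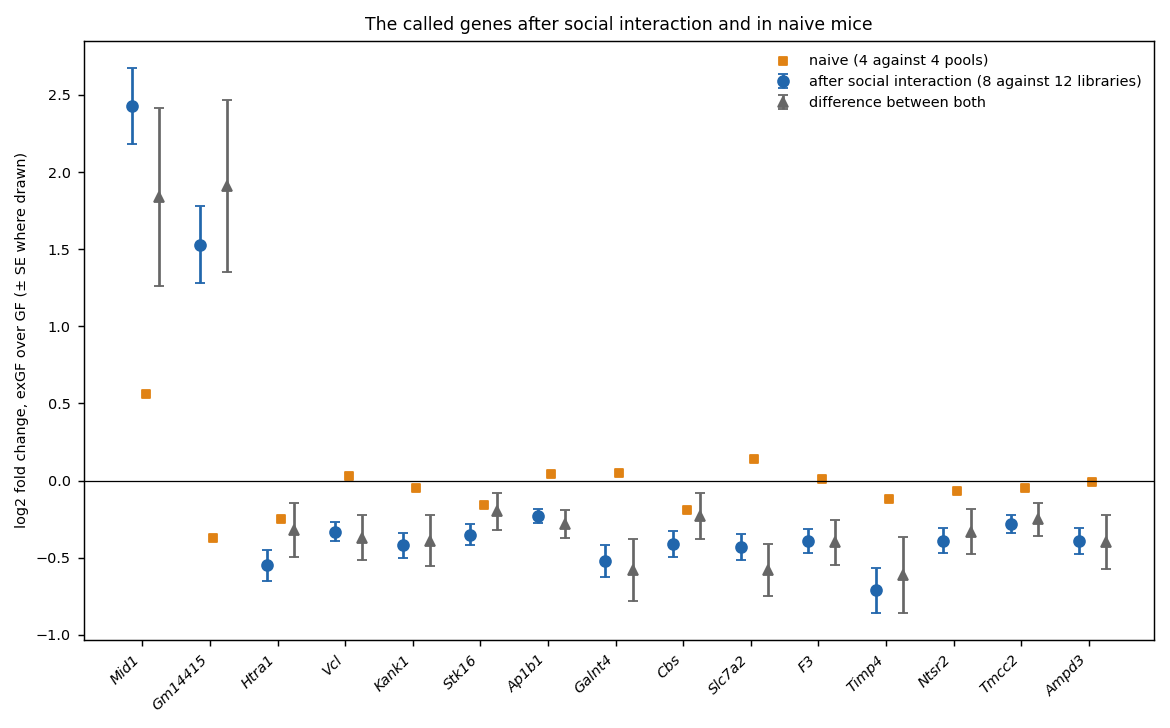
Log2 fold change of exGF over GF for the 15 called genes after social interaction (circles, with SE), in naïve pools (squares) and the difference between both (triangles, with SE), all from edgeR. Naïve values of the 13 falls lie between -0.25 and 0.14, and none of the differences passed the adjusted threshold. The 15 genes were picked by the contrast shown as circles, which is a term of the difference.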

How the data were processed

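Per the labels and methods, the authors prepared ribodepleted stranded libraries, sequenced pairs of 100 bases, trimmed with Trimmomatic 0.32, aligned with STAR 2.4.0f1 to GRCm38.p3 with Ensembl release 78 and counted with HTSeq 0.6.0. Counting ignored strand, so overlapping and antisense genes cannot be told apart. The deposited table holds raw read counts of 43629 genes in 40 libraries. The authors' own DESeq2 results, fold changes and p-values, were not used. Symbols and coordinates (42548 genes) came from GENCODE vM21 on GRCm38. Column names showed each library's group but not which sample it was. Library totals are given above, and with fewer reads low genes are less precise.

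The counts were tested with edgeR 4.0.16 in R 4.3.3 (filterByExpr, TMM, quasi-likelihood F-test, two-sided, Benjamini-Hochberg, called at an adjusted p of at most 0.1) on both groups only, with no covariates, and the naïve contrast and the interaction likewise. Alternatives were DESeq2 1.42.0 (an adjusted p given as NA stayed NA), limma 3.58.1 voom with sample weights, other scalings, filters and sample sets, and each library left out. Scripts were tested on simulated data. Named genes were all edgeR calls, the 12 highest and 12 lowest DESeq2 calls of at least 1 CPM on average (ranked by edgeR's fold change), genes of that level without overlap, up to 3 members of smallest p and all calls of each of 39 gene lists, genes the study names, and the genes of smallest p in the naïve contrast and the interaction. Others were chosen after their values were seen, among them the chromosome 2 region, Zfp, protocadherin and adaptor genes and AA465934. The members and lists were chosen with earlier results of these data known.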

Additional observations from a re-analysis of the deposited data

Results flagged for a closer look

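Of 92 genes named, 10 had 1 exGF-SI library far from the other 7, with a gap to its neighbour above 0.526 of the range of the group. Chance flags about 1 in 20 groups. In exGF-S8, 3 genes induced by activity or stress were high, Bdnf at 117 CPM, Ier5 at 73.1 CPM and Dnajb6 at 160 CPM. In exGF-S5, Pdgfra was high at 71.2 CPM and Hspa2 at 66.7 CPM. In exGF-S3, Gm14410 was high at 57.6 CPM while Gm14399 was low at 2.30 CPM. Stk16 was low at 10.7 CPM in exGF-S7, the library rich in ribosomal RNA. Gjb6 was low at 25.1 CPM in exGF-S4, and Iigp1 was high at 6.14 CPM in exGF-S10.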

How the results depend on the processing

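The number of genes called was 300 with DESeq2 (133 higher, 167 lower), 297 with a fold change prior (133 and 164), 131 with limma voom and weights (50 and 81), 135 in a fit of 6 groups (64 and 71), 63 in a fit of the 3 social interaction groups (26 and 37), 3 with no filter on low counts (1 lower) and 5 with a log2 fold change over 0.5 as well. Without exGF-S7 it was 120 (37 and 83), and without the libraries rich in Ttr 1 (1 and 0). With single libraries left out it ranged from 2 to 185 (higher 2 to 68, lower 0 to 117), at 185 without exGF-S5, 61 without GF-S3, 45 without GF-S1, 38 without GF-S11, 24 without GF-S9, and 2 without any of exGF-S3, exGF-S4, exGF-S9, exGF-S10, GF-S4, GF-S6 and GF-S8. The cause was not tested. All 13 falls were lower under every alternative. The naïve contrast gave 72 calls with DESeq2, 80 with no filter and 0 to 3 with a pool left out, and the interaction 110 with DESeq2 and 0 to 28 with a library left out.

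Whether the numbers in the column names mark paired libraries was not settled. Correlations of same-numbered libraries were -0.107 to 0.394, with 5 of 8 over 0.1, and 3 of 8 were highest with their own number. No chance level is given for these counts, so they do not decide the question. A fit with that number as a replicate block, on 8 libraries of each group, called 336 genes (140 higher, 196 lower). Settings added after seeing the data were the same 16 libraries without the block, with 3 calls (1 lower), and a correction for GC content and exon length, with 10 calls (7 lower). Of the 13 falls 12 were called with the block and 1 on the same 16 libraries without it. What the numbers stand for was not tested.

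Signs reversed for genes near 0. Gm14412 was -0.02 with voom, -0.07 without exGF-S7, -0.03 with the block, -0.01 without it, -0.12 after GC correction, and -0.07 to 0.09 with single libraries left out, at -0.07, -0.02 and -0.01 without exGF-S7, exGF-S8 and GF-S6. With single libraries left out Arc ranged from -0.06 to 0.31, below 0 without exGF-S8, exGF-S9 (-0.01) or exGF-S10 (-0.03), Egr3 from -0.06, without exGF-S8, to 0.20, and Dnajb6 from -0.02, without exGF-S8, to 0.09. Bdnf was 0.08 without the libraries rich in Ttr and 0.03 on the 16 libraries. C1qc was 0.01 with voom, Dnajb6 -0.01 with and without the block, Sostdc1 -0.01 without the libraries rich in Ttr, and naïve Gm14399 0.01 with DESeq2.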
